A study of Rattus norvegicus with 10 samples.

Results

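The luminal and alveolar lineage regulators examined here were *Gata3*, *Elf3*, *Elf5*, *Ehf*, *Prom1*, *Epcam* and *Sox9*, a set of 7 genes chosen by symbol. Every probe set that the platform annotation assigns to 1 of these symbols alone, current or former, was kept. This gave 7 probe sets of the 31042 tested and covered 6 of the 7 genes, with 2 probe sets for *Gata3* and 1 for each of the others. No probe set carried the symbol *Sox9* in the annotation used here, and that gene was not analysed.

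RNA from whole mammary glands was measured on Affymetrix rat expression arrays, 1 per rat. The 5 ACI rats (ACI/SegHsd, 21 weeks old) and the 5 BN rats (Brown Norway) were females, and the study obtained both strains from Harlan. All had received 17β-estradiol (E2) from subcutaneous implants for 12 weeks, beginning at 9 weeks of age. The labels give the age at collection for the ACI rats only. Both groups are inbred strains with no engineered allele, and no untreated rats were analysed here, so that a response to E2 itself cannot be read from these values. The RNA extraction text that accompanies the BN samples names ACI rats, and strain cannot be told apart from any difference in how the arrays of each strain were run.

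Mammary epithelium has an inner luminal layer and an outer basal layer, and the luminal layer contains hormone-sensing cells and the progenitors of milk-secreting alveolar cells. In the mouse, *Gata3* encodes a zinc finger transcription factor needed to form and maintain luminal cells, and *Elf5* encodes an ETS transcription factor that drives alveolar cell fate downstream of prolactin. *Ehf* and *Elf3* encode related epithelium-specific ETS factors, *Prom1* encodes prominin-1 (CD133), a membrane protein of apical protrusions that marks hormone-sensing luminal cells in the mouse, and *Epcam* encodes an adhesion molecule on the surface of epithelial cells. *Sox9* encodes a transcription factor of luminal progenitors.

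Because *Ehf*, *Elf3* and *Elf5* belong to the ETS family, whose factors recognise a GGAA core, the upstream sequences of the members were searched for that core on both strands. The windows were the 250 bases before a RefSeq start site (assembly GRCr8), and 4 members had a window in the table used. The sequence of *Epcam* is shown because this gene had the smallest spread among rats, and the stretches around each core of *Prom1* because this gene had the largest strain difference of the set. Capitals mark the GGAA core or TTCC, its complement.
Epcam, chr6:12649679-12649928, minus strand: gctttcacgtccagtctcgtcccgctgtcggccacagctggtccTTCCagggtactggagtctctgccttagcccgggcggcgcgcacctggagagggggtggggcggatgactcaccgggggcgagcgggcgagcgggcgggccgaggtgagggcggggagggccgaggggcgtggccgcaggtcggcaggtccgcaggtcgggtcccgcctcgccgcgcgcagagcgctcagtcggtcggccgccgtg
Prom1, first start, chr14:71202437-71202466, plus strand: gtctctaagtgtaTTCCtttagctccatcc
Prom1, second start, chr14:71211454-71211483, plus strand: atcctatcttgaaGGAAggatcctcctcct
Prom1, second start, chr14:71211580-71211609, plus strand: ggctcctggggcaGGAAaggcagtctctga
The *Epcam* window held 1 core and was 75.6% G and C, against a median of 51.2% over the 33469 RefSeq windows of this length. The *Prom1* windows held 1 core before the first start site shown and 2 before the second, and those of *Gata3* and *Elf3* held 3 each. First and second number only the *Prom1* start sites that had a window. Both windows lie inside the annotated gene, which begins further upstream at 71202303. A GGAA core was present in 93.2% of all windows, with a median of 3, so its presence does not set these genes apart. The sequence GATAA, which GATA factors recognise, was searched in the same way and was in 23.5% of all windows and in none of those of these 4 genes.

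Values are log2 expression values from GCRMA, a background correction and normalization for Affymetrix arrays. The lowest value in the data is 2.23, and a gene is called near background in a strain where all 5 of its rats had values under 4. A strain difference is the mean of the ACI rats minus the mean of the BN rats on the log2 scale, and it was called when limma's adjusted p, corrected over all 31042 probe sets, was under 0.05. In whole tissue, fewer cells of a type and less RNA per cell cannot be told apart.

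All 7 probe sets had the higher mean in ACI glands, and 5 of them, one for each of *Prom1*, *Ehf*, *Gata3*, *Elf5* and *Epcam*, were called. Over all probe sets, 6.79% were called toward ACI and 5.87% toward BN, 12.7% in either direction. The median strain difference of the 7 was 1.06, against 0 over all probe sets. In the same 5 probe sets every ACI rat had a higher value than every BN rat, which was the case for 6.8% of all probe sets.

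**Figure D1:**
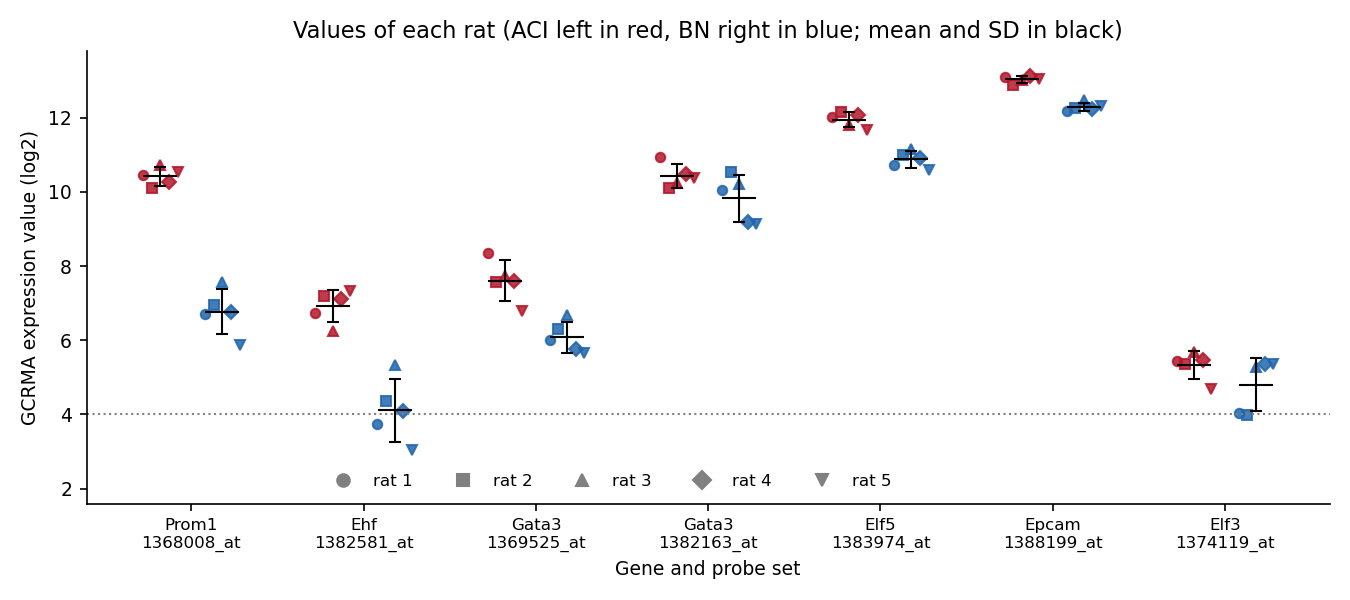
GCRMA log2 expression value (vertical axis) of each rat for each of the 7 probe sets (horizontal axis), with ACI rats in red on the left and BN rats in blue on the right, a marker shape for each rat number, and the mean and SD of the 5 rats in black. The dotted line is at 4. The strains do not overlap for *Prom1*, *Ehf*, *Gata3* 1369525_at, *Elf5* and *Epcam*, and they overlap for *Gata3* 1382163_at and *Elf3*.

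The surface protein gene *Prom1* (probe set 1368008_at) showed the largest difference. Its values were 10.45, 10.09, 10.73, 10.26 and 10.54 in ACI rats 1 to 5, against 6.72, 6.94, 7.58, 6.77 and 5.86 in BN rats 1 to 5. The ACI rats lay within 0.64 of each other and the BN rats within 1.72, and the lowest ACI rat was 2.51 above the highest BN rat. The strain difference was 3.64 (standard error 0.289, adjusted p = 0.00017 from limma), which is 12.5-fold higher in ACI glands (95% confidence interval 7.88 to 19.7).

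*Epcam* (1388199_at), the other surface protein gene, had the smallest called difference. Its values were 13.09, 12.87, 13.02, 13.11 and 13.05 in ACI rats, against 12.17, 12.27, 12.47, 12.24 and 12.31 in BN rats. The spread within either strain was small, with SDs of 0.095 in ACI rats and 0.112 in BN rats (n = 5 each). The difference was 0.74 (standard error 0.064, adjusted p = 0.000254 from limma), or 1.67-fold (1.5 to 1.84).

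Among the transcription factors, *Ehf* (1382581_at) differed most. It had 6.74, 7.19, 6.26, 7.11 and 7.34 in ACI rats, against 3.74, 4.37, 5.34, 4.09 and 3.04 in BN rats. BN rats 1 and 5 were under 4, so that the size of the difference rests in part on values near background. The difference was 2.81 (standard error 0.415, adjusted p = 0.00315 from limma), or 7.02-fold (3.64 to 13.6), and it was 2.57 (adjusted p = 0.00153 from limma) when values under 4 were raised to 4. Within the 3 rats per strain whose IDs open with S it was 2.25 and did not pass (adjusted p = 0.0585 from limma).

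*Elf5* (1383974_at), the alveolar ETS factor, had 12.02, 12.14, 11.80, 12.08 and 11.66 in ACI rats, against 10.73, 11, 11.16, 10.91 and 10.58 in BN rats. The strains were 0.5 apart at their closest, and the SDs were 0.202 in ACI rats and 0.227 in BN rats (n = 5 each). The difference was 1.06 (standard error 0.133, adjusted p = 0.00144 from limma), or 2.09-fold (1.69 to 2.58). The remaining ETS factor of the set, *Elf3* (1374119_at), had 5.45, 5.36, 5.68, 5.47 and 4.68 in ACI rats, against 4.05, 3.98, 5.29, 5.36 and 5.36 in BN rats. BN rats 3, 4 and 5 lay within the ACI range and BN rats 1 and 2 below it, and the difference of 0.52 (standard error 0.357, 95% confidence interval -0.30 to 1.34) was not called (adjusted p = 0.461 from limma).

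The luminal factor *Gata3*, which the study selected on these same samples so that its direction is not independent evidence, was measured by 2 probe sets that gave unequal results. With 1369525_at the values were 8.34, 7.56, 7.73, 7.59 and 6.80 in ACI rats, against 6.0, 6.31, 6.69, 5.76 and 5.67 in BN rats. ACI rat 5 and BN rat 3 came within 0.11 of each other, and the difference of 1.52 (standard error 0.301) was called (adjusted p = 0.0129 from limma). With 1382163_at, which has the higher mean, the values were 10.94, 10.09, 10.25, 10.49 and 10.37 in ACI rats, against 10.04, 10.54, 10.21, 9.18 and 9.13 in BN rats. Here BN rats 2 and 3 lay within the ACI range, BN rats 1, 4 and 5 lay below it, and the difference of 0.61 (standard error 0.310, 95% confidence interval -0.10 to 1.32) was not called (adjusted p = 0.282 from limma).

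The value of 1369525_at minus that of 1382163_at was computed in each rat to compare both *Gata3* probe sets directly. It averaged -2.82 ± 0.445 in ACI rats and -3.73 ± 0.374 in BN rats (SD, n = 5 each), a strain difference of 0.91 (exact permutation test, two-sided p = 0.0317). The sources used here do not say which *Gata3* transcripts each probe set detects. Adjusted over all pairs of member probe sets, as planned, the p of the exact test was 0.0555 and did not pass. The unadjusted p was 0.0635 in the exact test when any of ACI rats 1 to 4 or BN rats 1 and 2 was left out.

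The strain differences of the members were compared with each other in the same way, by the difference between probe sets within each rat, over all 21 pairs of the 7 probe sets. Apart from the *Gata3* pair, these comparisons were chosen after the values were seen. The strain difference of *Prom1* exceeded that of each of the other 6 probe sets. It was larger than that of *Ehf* by 0.83 (exact permutation test, two-sided p = 0.0159, adjusted over the pairs 0.0334) and larger than that of *Elf5* by 2.58 (exact permutation test, p = 0.0079, adjusted 0.0185). *Ehf* exceeded *Elf5* by 1.75, *Epcam* by 2.08, *Elf3* by 2.29 and *Gata3* 1382163_at by 2.20 (exact permutation test, adjusted p = 0.0185 each). None of the other 11 pairs, the *Gata3* pair among them, passed after adjustment. The exact p of 0.0079 is the smallest that 5 rats against 5 allow.

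Level and spread of luminal keratins were examined beside these results, since they mark the layer in which most members are expressed. *Krt8* had a strain difference of 0.22 (adjusted p = 0.714 from limma), *Krt18* of 1.02 (called) and *Krt19* of -0.18 (adjusted p = 0.901 from limma). Their mean was 11.94 ± 0.335 in ACI rats and 11.59 ± 0.602 in BN rats (SD, n = 5 each), a difference of 0.36 (exact permutation test, two-sided p = 0.27). When each array was centred on this mean, the median of all probe sets shifted by -0.36 and the share of calls toward ACI was 23.6%, against 53.6% on the values as deposited. On that scale 3.12% of all probe sets were called toward ACI and 10.1% toward BN. By staining, the study counted luminal cells per field and reported a larger rise over sham rats in E2-treated ACI than BN glands. Whether keratin RNA follows that count was not tested, so the keratin scale is not a correction per luminal cell. *Krt7*, a keratin of the luminal list that was not part of the mean, had the opposite direction. Its strain difference was -1.53 as deposited (adjusted p = 0.0712 from limma, not called) and -1.88 on the keratin scale, where it was called toward BN.

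Relative to luminal keratins, *Prom1* remained 3.28 higher in ACI glands (adjusted p = 2.51e-10 from limma), *Ehf* 2.46 (9.04e-07) and *Gata3* 1369525_at 1.16 (0.0105). *Elf5* had 0.71 (adjusted p = 0.208 from limma) and *Epcam* 0.38 (0.45), and neither was called. *Elf3* had 0.17 and *Gata3* 1382163_at 0.25, again not called. Centring puts the same array shifts into every probe set, and limma pools spread over probe sets. The standard error of *Prom1* was larger on this scale (0.343, against 0.289 as deposited), although its adjusted p was smaller. Adjusted p-values on this scale are therefore not stronger evidence than those on the values as deposited. The direction was toward ACI for all 7 on both scales, as it was after quantile normalization and after centring on the median of probe sets above 4.

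**Figure D2:**
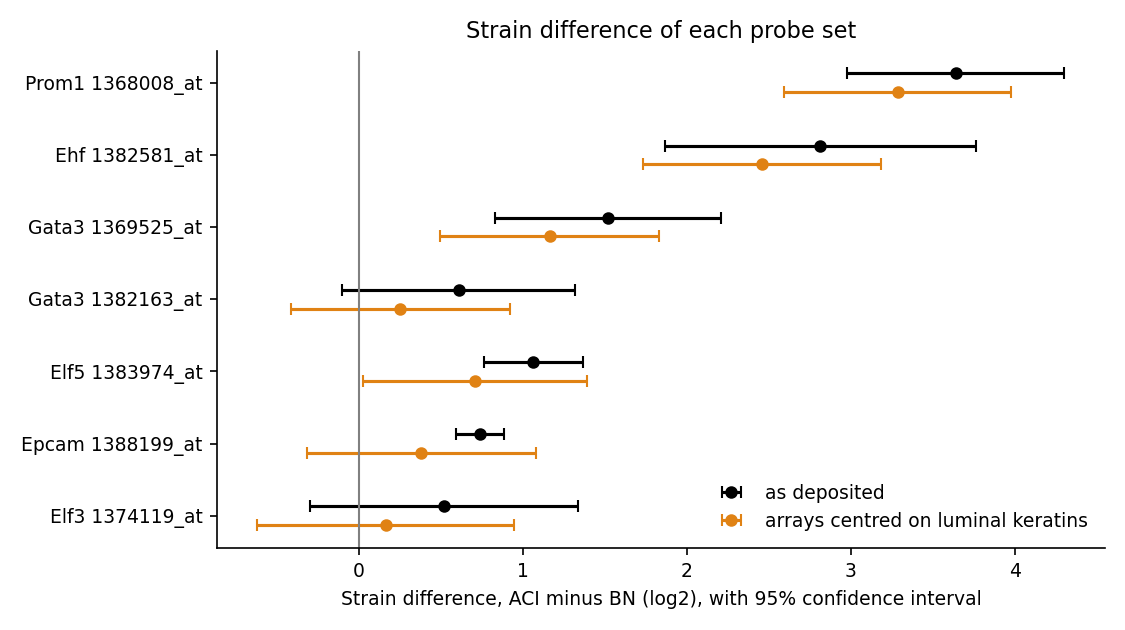
Strain difference, ACI minus BN, in log2 units (horizontal axis) of each probe set (vertical axis), with points for the estimate and bars for its 95% confidence interval from limma, on the values as deposited (black) and with each array centred on the luminal keratins *Krt8*, *Krt18* and *Krt19* (orange). The intervals of *Prom1*, *Ehf*, *Gata3* 1369525_at and *Elf5* lie above 0 on both scales, and that of *Epcam* spans 0 only on the keratin scale. The intervals are not adjusted over probe sets, and *Elf5* was not called on the keratin scale.

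Within BN, several of the genes had the same rat at the top and the same rat at the bottom. BN rat 3 had the highest BN value in 5 of the 7 probe sets, those of *Prom1*, *Ehf*, *Gata3* 1369525_at, *Elf5* and *Epcam*, and BN rat 5 had the lowest in 5, the first 4 of these and *Gata3* 1382163_at. BN rat 3 also stood apart in the mean of 7 leukocyte markers, at 6.96 against 9.45 to 10.10 in the other BN rats. The lymphocyte genes *Ms4a1* (the B cell protein CD20), *Cd79b*, *Cd3d* and *Cd3e* and the leukocyte gene *Ptprc* had their lowest BN value in that rat. The macrophage genes *Cd68* (10.28) and *Csf1r* (10.49) were not low there, against 8.95 to 9.31 and 9.48 to 10.49 in the other BN rats. The ACI rats had means of 5.53 to 5.90 on the 7 markers, all called toward BN. *Ms4a1* was at 2.23 in all ACI rats and in BN rat 3. The part of this difference in leukocyte markers in the results was not tested.

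Without BN rat 3 the strain differences were 3.84 for *Prom1*, 3.12 for *Ehf*, 1.67 for *Gata3* 1369525_at, 1.14 for *Elf5* and 0.78 for *Epcam*, and all 5 were called. The same 5 were called when any other rat was left out.

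**Figure D3:**
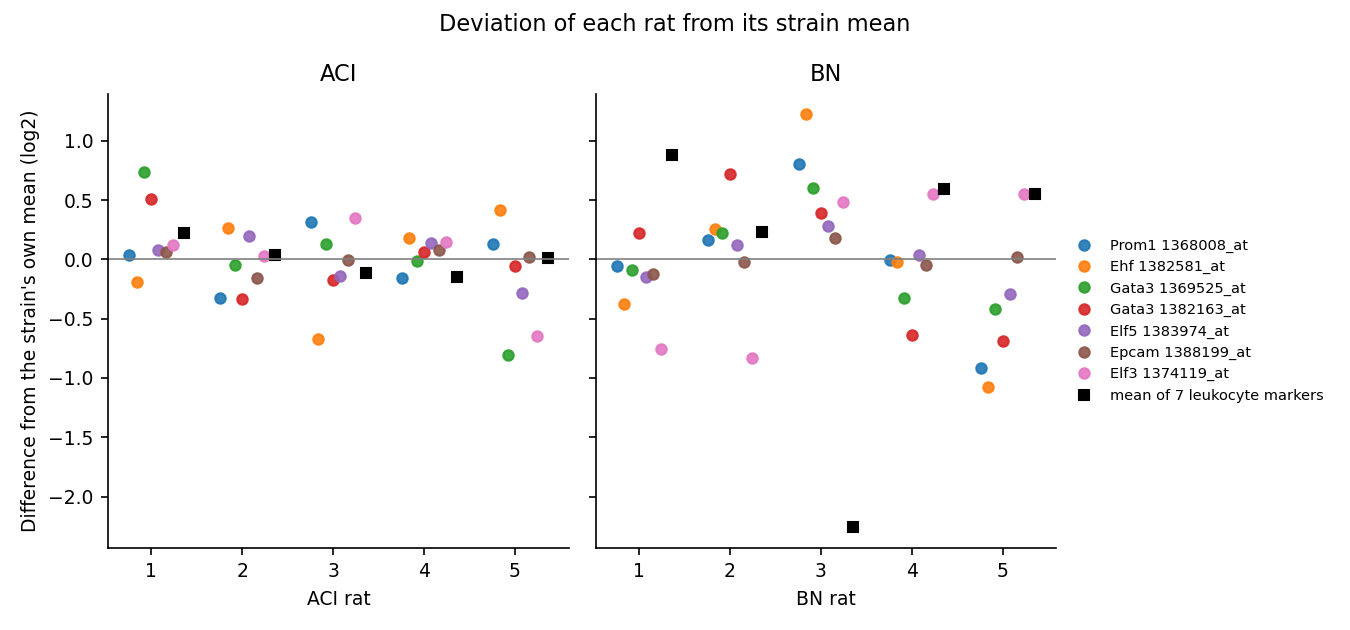
Value of each rat minus the mean of its own strain in log2 units (vertical axis) for ACI rats (left panel) and BN rats (right panel), with a colour for each probe set and black squares for the mean of 7 leukocyte markers. In BN rat 3 the mean of the leukocyte markers lies below the strain mean while all 7 probe sets lie above it.

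The labels give rats 1 to 3 of each strain animal IDs that open with S and rats 4 and 5 IDs that open with H, letters whose meaning the sources used here do not state. Within series S the strain differences were 3.34 for *Prom1*, 1.54 for *Gata3* 1369525_at, 1.02 for *Elf5* and 0.69 for *Epcam*, all 4 called, where 6.67% of all probe sets were called toward ACI. Within series H, with 2 rats per strain, none of the 7 was called (smallest adjusted p = 0.0858 from limma) and 0.145% of all probe sets were called toward ACI. The differences there were 4.08 for *Prom1*, 1.48 for *Gata3* 1369525_at, 1.12 for *Elf5* and 0.81 for *Epcam*.

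The strain difference of *Ehf* was 2.25 in series S and 3.66 in series H. *Elf3* had a strain difference of 1.06 in series S and -0.28 in series H, with BN means of 4.44 in series S and 5.36 in series H. *Gata3* 1382163_at had 0.16 in series S and 1.27 in series H, with BN means of 10.26 in series S and 9.15 in series H. The test of the difference between series did not pass for any of the 7 (adjusted p = 0.449 for *Ehf*, 0.337 for *Elf3* and 0.188 for *Gata3* 1382163_at from limma), whereas 2.76% of all probe sets passed.

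The genes whose profile over the 10 arrays was closest to that of a member were found for the members whose probe set of highest mean spanned at least 2 log2 units, which were *Prom1* and *Ehf*. *Gata3* 1369525_at spanned 2.67 but is not the probe set of highest mean of its gene and was not included. The measure was the root mean square difference between profiles after each gene was centred on its own mean, over 14216 other genes. Closest to *Prom1* were *Gsta4*, a glutathione transferase (0.323), *Adcy10*, the soluble adenylyl cyclase (0.357), and *Car8*, a carbonic anhydrase-related protein (0.359). *Gsta4* had 12.04 to 12.65 in ACI rats, against 7.88 to 8.90 in BN rats. Closest to *Ehf* were *Dpyd*, which degrades pyrimidines (0.36), *G0s2*, an inhibitor of triglyceride lipase (0.374), and *Xiap*, an inhibitor of caspases (0.381). *Dpyd* had 9.14 to 9.75 in ACI rats, against 5.07 to 7.10 in BN rats. These likenesses are dominated by the step between strains and describe these 10 arrays.

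The wider set of regulators of luminal and alveolar cells held 34 further genes, of which 29 were measured, each by its probe set of highest mean. Of these 29, 10 were called toward ACI, 2 toward BN and 17 were not called, with a median strain difference of 0.67. The share called toward ACI over all 14217 genes was 8.29%, that toward BN was 9.12%, and their median was 0. *Id2*, an inhibitor of basic helix-loop-helix factors that is needed for alveolar growth in the mouse, had 11.15, 10.85, 11.44, 11.50 and 12.61 in ACI rats, against 9.11, 9.51, 9.19, 9.46 and 9.62 in BN rats. The strains did not overlap, and the difference was 2.13 (standard error 0.306, adjusted p = 0.0028 from limma).

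Among the AP-2 transcription factors, *Tfap2a* and *Tfap2c* each had a difference of 1.71 (adjusted p = 0.00469 and 8.97e-05 from limma), and *Tfap2b* had 1.5 and was not called (adjusted p = 0.151 from limma). *Grhl1*, a grainyhead factor of epithelia, had 1.5 and *Xbp1*, a factor of secretory cells, 1.35, both called. The prolactin-activated factors *Stat5a* and *Stat5b* had 1.29 and 0.93, *Sox4* 1.03, *Notch1* 0.91 and the LIM protein *Lmo4* 0.67, all called. *Stat5a* was also selected by the study on these same samples, so its direction is not independent evidence.

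Toward BN, *Klf4*, a zinc finger factor of epithelia, had 6.76, 7.34, 6.69, 6.70 and 7.26 in ACI rats, against 9.27, 9.51, 9.01, 8.91 and 8.25 in BN rats, a difference of -2.04 (standard error 0.25, adjusted p = 0.00135 from limma). *Rbpj*, the DNA-binding partner of Notch receptors, had -0.47 (adjusted p = 0.0145 from limma). *Esr1*, *Foxa1* and *Zfpm1* were at 2.23 on all arrays and *Notch3* at 2.63, and 6 of the 29 genes were under 4 on every array. Unchanging values at this level do not show that the RNA was absent. Relative to luminal keratins, 6 of the 29 were called toward ACI and 1 toward BN.

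**Figure D4:**
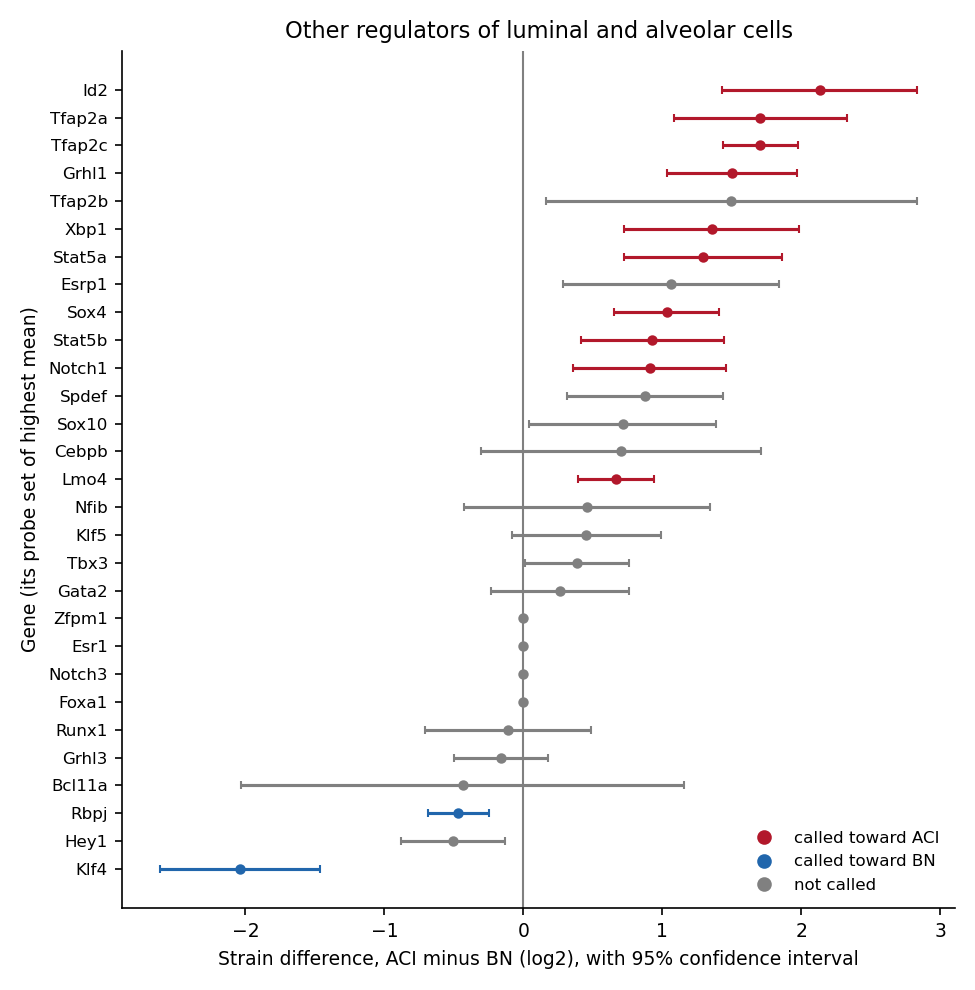
Strain difference, ACI minus BN, in log2 units (horizontal axis) of 29 further regulators of luminal and alveolar cells (vertical axis, each by its probe set of highest mean), with 95% confidence intervals from limma. Genes called toward ACI are red (10), genes called toward BN blue (2) and genes not called grey (17), and the median is 0.67.

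Of the rest of the ETS family, 16 of 19 genes were measured. *Etv6* (1.04) and *Elf2* (0.73) were called toward ACI, *Elk3* (-1.07) and *Etv1* (-0.99) toward BN, and the median was -0.12, so that the family did not share the direction of *Ehf* and *Elf5*. *Etv6* was near background in BN, and its call was lost when values under 4 were raised to 4 (0.14). Of 8 measured surface proteins that are used with *Prom1* and *Epcam* to sort or describe epithelial cells, *Itga6* (1.19) and *Cd24* (1.11) were called toward ACI and *Cd44* (-3.19) toward BN. *Cd44*, a hyaluronan receptor also carried by leukocytes, had 4.53, 5.34, 4.87, 5.16 and 5.53 in ACI rats, against 8.78, 8.70, 8.78, 7.91 and 7.22 in BN rats. Both *Cd24* and *Cd44* were selected by the study on these same samples, so their directions are not independent evidence.

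Markers of the cell types of the gland were compared to place these results. Of 10 luminal epithelium genes, *Cldn3* (1.92) and *Krt18* (1.02) were called toward ACI and none toward BN, with a median of 0.36. The mean of this list was 9.90 to 10.26 in ACI rats and 8.77 to 10.08 in BN rats, and BN rat 3 was again the highest of its strain and BN rat 5 the lowest. Of 6 hormone-sensing luminal genes, 4 were called toward ACI, with *Areg* at 5.73 and *Wnt4* at 4.40, both near background in BN. All 4 (*Areg*, *Wnt4*, *Pgr* and *Tnfsf11*) were selected by the study on these same samples, so this count is not independent evidence. *Esr1* and *Foxa1*, which define hormone-sensing cells, were at 2.23 throughout, the lowest value in the data. Such values cannot tell absent RNA from a probe set that does not respond.

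Of 12 genes of luminal progenitors and alveolar cells other than *Elf5*, 4 were called toward ACI and 4 toward BN, with a median of 0.35, unlike the single direction of the 5 called members. *Mfge8*, a milk fat globule protein, had 0.92 and the casein *Csn1s1* 0.43, whereas the retinoic acid enzyme *Aldh1a3* had -5.36 and *Lao1* -1.05. Of 9 basal and myoepithelial genes, *Tp63* (1.03) and *Cnn1* (0.51) were called toward ACI and none toward BN. Of the 8 skin and hair follicle genes, *Krt15* (2.47) and *Krt10* (1.45) were called toward ACI, and 5 were under 4 on all arrays.

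In the lists for stromal and blood-derived cells, every gene called on the values as deposited was called toward BN. *Vwf* (-2.46) and *Tek* (-1.58) were among 3 of 4 endothelial genes called toward BN, as were *Adipoq* (-0.86) alone of 7 adipocyte genes and *Pdgfra* (-0.97) alone of 6 fibroblast genes. Of the 7 leukocyte genes, *Ms4a1* (-6.81) and *Cd3d* (-5.01) had the largest differences. The 5 skeletal muscle genes had a median of 3.71, with list means of 8.40 to 12.38 in ACI rats and 5.04 to 11.37 in BN rats. Of the BN rats, rat 5 had the highest mean of this list, and rats 3 and 1 had the lowest, at 5.04 and 5.08. None of these 5 genes was called. Relative to luminal keratins these counts differed, with 0 genes called toward ACI and 5 toward BN among the 7 adipocyte genes, 0 and 5 among the 6 fibroblast genes, 4 and 0 among the 5 muscle genes, 0 and 3 among the 12 alveolar genes and 0 and 5 among the 16 ETS genes. On that scale the 9 basal genes had no call, the luminal list had 3 calls toward ACI and 1 toward BN, 1 skin gene was called toward ACI, and 1 surface protein gene was called toward ACI and 2 toward BN. The counts of the hormone-sensing, endothelial and leukocyte lists were equal on both scales.

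The calls of *Krt18*, *Mfge8*, *Krt10*, *Adipoq*, *Tek*, *Pdgfra*, *Ms4a1*, *Elk3*, *Etv1* and *Cd24* were each lost in at least 1 of the fits that left out 1 rat. The part of these cell types in the results on the lineage regulators was not tested.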

How the data were processed

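The authors deposited 1 table of log2 expression values for 10 arrays, made with GCRMA 2.18.1 per the labels' processing notes; the labels do not say if both strains were normalized in a joint run, and scanner files were not used here. Their number, 5 rats per strain, limits the precision. The deposited table held 31099 probe sets, and its 57 controls were dropped. Gene names came from the platform annotation, brought up to date through the gene IDs of RefSeq (GRCr8): 20826 probe sets carried 1 symbol, 436 several and 9780 none. ACI and BN rats were compared with limma 3.58.1 in R 4.3.3, with Benjamini-Hochberg adjustment over all 31042 probe sets. Of 100 probe sets changed by 1 log2 unit in simulated data of this comparison 39 were recovered, and of 100 changed by 2 units 77, with 10 false calls among 31042. Only these probe sets were changed, all chosen among probe sets of higher mean, and the noise was independent between probe sets. Recovery of probe sets with low means was not tested. The recovery does not carry over directly to the data, where 3930 probe sets were called. Exact permutation tests were run in SciPy 1.17.1.

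The members and lists were chosen with earlier results of these data known. Named genes were every member and the 2 called genes of each list with the largest difference in each direction. The 3 genes closest to each member whose probe set of highest mean spanned at least 2 log2 units were also named. *Krt7*, *Krt8*, *Krt19*, the further leukocyte genes, the floored genes and the further called or AP-2 regulators were named after their values were seen. The lists covered other luminal and alveolar regulators, the ETS family, surface partners, luminal, hormone-sensing, alveolar and basal epithelium, adipocytes, endothelium, fibroblasts, leukocytes, muscle and skin. Alternatives were blocks for the replicate number or ID series, each series alone, a filter or a floor at 4, quantile, median or luminal keratin scaling, trended and robust variance, array weights, the methods' t-test and Welch's test with the same adjustment, the mean or highest-mean probe set of a gene, leaving out probe sets ending in _x_at or _s_at, and leaving out each rat. Nothing says that the rats were littermates or housed together, and p-values measure the spread between these rats.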

Additional observations from a re-analysis of the deposited data

Results flagged for a closer look

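Values were checked for rats that stood apart from their own strain in 100 groups of 5 rats, covering the members, the lists and the genes named from them, and 7 did so by Dixon's criterion, which chance alone meets in about 1 in 20 groups. None of the 7 was a member probe set. In ACI, rat 5 was low in the mean of luminal progenitor and alveolar genes at 11.20, and the same rat was high in *Lao1* at 4.31 and in *Krt10* at 7.66. In BN, rat 3 was low in the mean of leukocyte genes at 6.96, in *Ms4a1* at 2.23 and in *Areg* at 2.62, which is near background in all BN rats. BN rat 4 was high in *Krt10* at 6.33. No member and no gene named from the lists by the rule above differed between the ID series in its strain difference on the values as deposited.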

How the results depend on the processing

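The 5 called member probe sets were called in each of the 10 fits that left out 1 rat, in which all calls ranged over 2598 to 4618 against 3930 with all rats, and they were called with the ID series as a block, a filter or floor at 4, quantile or median scaling, trended and robust variance, array weights, the methods' t-test, Welch's test and without BN rats 4 and 5 (chosen after seeing the data). The methods' t-test gave 7434 probe sets and 5 members at its unadjusted threshold, and 3962 and 5 after Benjamini-Hochberg adjustment. All calls numbered 8397 with array weights, 6350 without BN rats 4 and 5, 1926 with the replicate number as a block and 100 in series H alone. Same-numbered rats shared only a number: their deviations correlated at -0.2 to 0.2, and 2 of 10 rats correlated best with their own number. In the fit with the replicate block, *Ehf* (2.81) missed the threshold at an adjusted p of 0.0584, 4 regulators were called toward ACI in place of 10, and 4 of the 7 members remained called. In series H alone 0 members and 0 regulators in either direction were called, and the differences were *Prom1* 4.08, *Ehf* 3.66, *Gata3* 1369525_at 1.48, *Elf5* 1.12, *Epcam* 0.81 and *Elf3* -0.28, the last reversed. In series S alone *Ehf* had 2.25 and 4 regulators were called toward ACI. Relative to luminal keratins 3 members were called, *Elf5* had 0.71 and *Epcam* 0.38, 6 regulators had calls toward ACI and 1 toward BN, and 1 member, *Elf3*, differed between ID series (1 of 7, by 2.00, adjusted p = 0.015 from limma). The limit given above for adjusted p-values on the keratin scale applies here too. With trended and robust variance 1 regulator was called toward BN. With array weights *Elf3* had 1.05 and was called (adjusted p = 0.0262 from limma), and the mean of both *Gata3* probe sets gave 1.06 and was called (adjusted p = 0.0371 from limma). The *Gata3* probe set disagreement was 1.38 in series S (exact p = 0.1, the smallest possible), 0.205 in series H, 1.11 without BN rats 4 and 5 and 0.786 to 1.10 when 1 rat was left out. The causes were not tested. Of 29 genes named from the lists, 28 lost their call in some setting and none reversed. When series H alone is set aside, 9 of the 29 kept their call in every setting. Depth has no counterpart on arrays, and *Ehf* had values under 4 in 2 BN rats, with a difference of 2.57 when these were raised to 4.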

Other observations

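*Ehf* and *Elf5* are neighbours on rat chromosome 3, with no protein-coding gene between them in the RefSeq annotation of GRCr8. Within 1 Mb on either side lie 17 other protein-coding genes, of which 16 were measured. None of the 16 was called toward ACI, and *Cd44*, *Pamr1* and *Lmo2* were called toward BN, at -3.19, -1.74 and -1.20 (adjusted p = 0.000796, 0.00201 and 0.0169 from limma). *Apip*, the nearest protein-coding gene beyond *Ehf*, had 0.40 and *Cat*, the nearest beyond *Elf5*, had 0.65, and neither was called (adjusted p = 0.496 and 0.437 from limma). Both probe sets of *Cd44* gave the same direction, the second with 4.64 ± 0.426 in ACI rats and 8.02 ± 0.335 in BN rats (SD, n = 5 each). The neighbourhood was looked at after the values of *Ehf* and *Elf5* were known.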
